A study of Mus musculus with 9 samples.

Results

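The genes described here code for the subunits of respiratory complexes II, III and IV, of ATP synthase (complex V), and for cytochrome c. They were taken from the deposited count table by symbol: Sdha to Sdhd, the Uqcr genes, Cyc1, Cycs, Cox4 to Cox8 with their letters, the Atp5 genes, and the mitochondrially encoded mt-Cytb, mt-Co and mt-Atp genes, leaving out 8 symbols marked as pseudogenes. That gave 55 of the 18954 rows of the table, 49 nuclear-encoded and 6 mitochondrially encoded. Complex II had 4 rows, complex III 10, cytochrome c 1, complex IV 20 and complex V 20. RNA came from 5 livers of mice heterozygous for GSDMD-NT and for Alb-cre, and from 4 control livers of mice heterozygous for GSDMD-NT without Cre, all at day 42. Every mouse thus carried the GSDMD-NT allele, which codes for the pore-forming N-terminal part of gasdermin D. Alb-cre expresses Cre recombinase from the albumin promoter, which is active in hepatocytes. The study describes a mouse model of liver fibrosis in which doxycycline induces cell death. The labels of these livers do not state doxycycline or obeticholic acid, nor age, sex, litter or whether each liver is a separate animal, so p-values here reflect variation among these livers, part of which may be technical. With no group carrying Alb-cre alone, effects of Cre and of GSDMD-NT cannot be told apart.

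The respiratory chain moves electrons from food-derived carriers to oxygen within the inner mitochondrial membrane. Complex II oxidises succinate and feeds ubiquinone, complex III passes electrons on to cytochrome c, and complex IV hands them to oxygen, while complexes III and IV pump protons that drive the rotary ATP synthase. Hepatocytes are rich in mitochondria and use this ATP for glucose synthesis, urea synthesis and secretion. Complex II is wholly nuclear-encoded, whereas the catalytic cores of complexes III and IV and the proton channel of complex V contain subunits read from mitochondrial DNA.

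The libraries held 13361093 to 16823506 counts per liver and detected 17415 to 17775 genes. Levels are TMM-scaled CPM, a gene's count relative to the library total. Fold changes are on the log2 scale, GSDMD-NT Alb-cre minus control, with the SE that follows from the quasi-likelihood test in edgeR. A gene is called when its p, adjusted by Benjamini-Hochberg over the 14004 genes tested, is under 0.05. Calls are those of edgeR unless another tool is named. Gsdmd, the gene behind the knock-in, had 42.2, 50.8, 31.3, 37.8 and 42.7 CPM across the 5 GSDMD-NT Alb-cre livers, against 41.6, 34.4, 31.7 and 47.6 CPM in the 4 controls. The groups overlapped, and the fold change of 0.08 ± 0.16 was not called (adjusted p = 0.765). The counts do not separate the knock-in from the native gene. The tissue label matched the markers: Alb, the main secreted protein of hepatocytes, had 36180 to 50150 CPM in GSDMD-NT Alb-cre livers and 47110 to 61950 CPM in controls, with a fold change of -0.33 ± 0.20 (adjusted p = 0.271).

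Many transcripts of nuclear-encoded subunits were lower in GSDMD-NT Alb-cre livers, mainly those of small subunits, and those of large catalytic subunits such as Sdha, Atp5a1 and Atp5b were not called. Of the 55 rows, 51 passed the filter on low counts. Of these, 27 were called lower and 0 higher, where 9.07% of all tested genes were called lower and 9.25% higher. At an unadjusted p under 0.05, 36 were lower and 0 higher, where 2421 of all 14004 tested genes were lower and 2460 higher. DESeq2 called 35 lower (11.8% of all tested genes) and 0 higher, and limma-voom 25 lower (8.95% of all tested genes) and 0 higher. Beyond the 27, DESeq2 called Cyc1, Uqcrh, Uqcrc1, Cox5a, Cox6c2, Atp5d, mt-Cytb and mt-Co1. Fewer were called lower by edgeR under other settings: 4 with a correction for transcript length (7.65% of all tested genes), 0 without controls 2 and 4 (0.301%), 9 with a block on the replicate number of the titles (5.87%) and 0 with a block on that of the descriptions (1.64%). The median log2 fold change of the 51 was -0.42, against 0.01 over all genes tested. In 29 of them every GSDMD-NT Alb-cre liver was below every control (9.22% of all tested genes), and in 0 was every one above (9.23% of all tested genes). The rows not tested were Cox4i2, Cox6a2, Cox8b and a second identifier of Atp5o that had 0 counts in every liver.

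All of edgeR's calls were in nuclear-encoded genes: 27 of 45 were lower, with a median of -0.43. None of the 6 mitochondrially encoded genes was called by edgeR, with a median of -0.20. At an unadjusted p under 0.05, 1 of the 6 was lower, beside 2421 of all 14004 tested genes. DESeq2 called 2 of the 6 lower, mt-Co1 and mt-Cytb. Among nuclear-encoded genes, 1 of 4 was lower in complex II (median -0.20), 4 of 9 in complex III (median -0.40), 10 of 14 in complex IV (median -0.53) and 12 of 17 in complex V (median -0.49). Differences between the complexes and between the genomes were not tested, since the genes of a liver are not replicates.

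**Figure D1:**
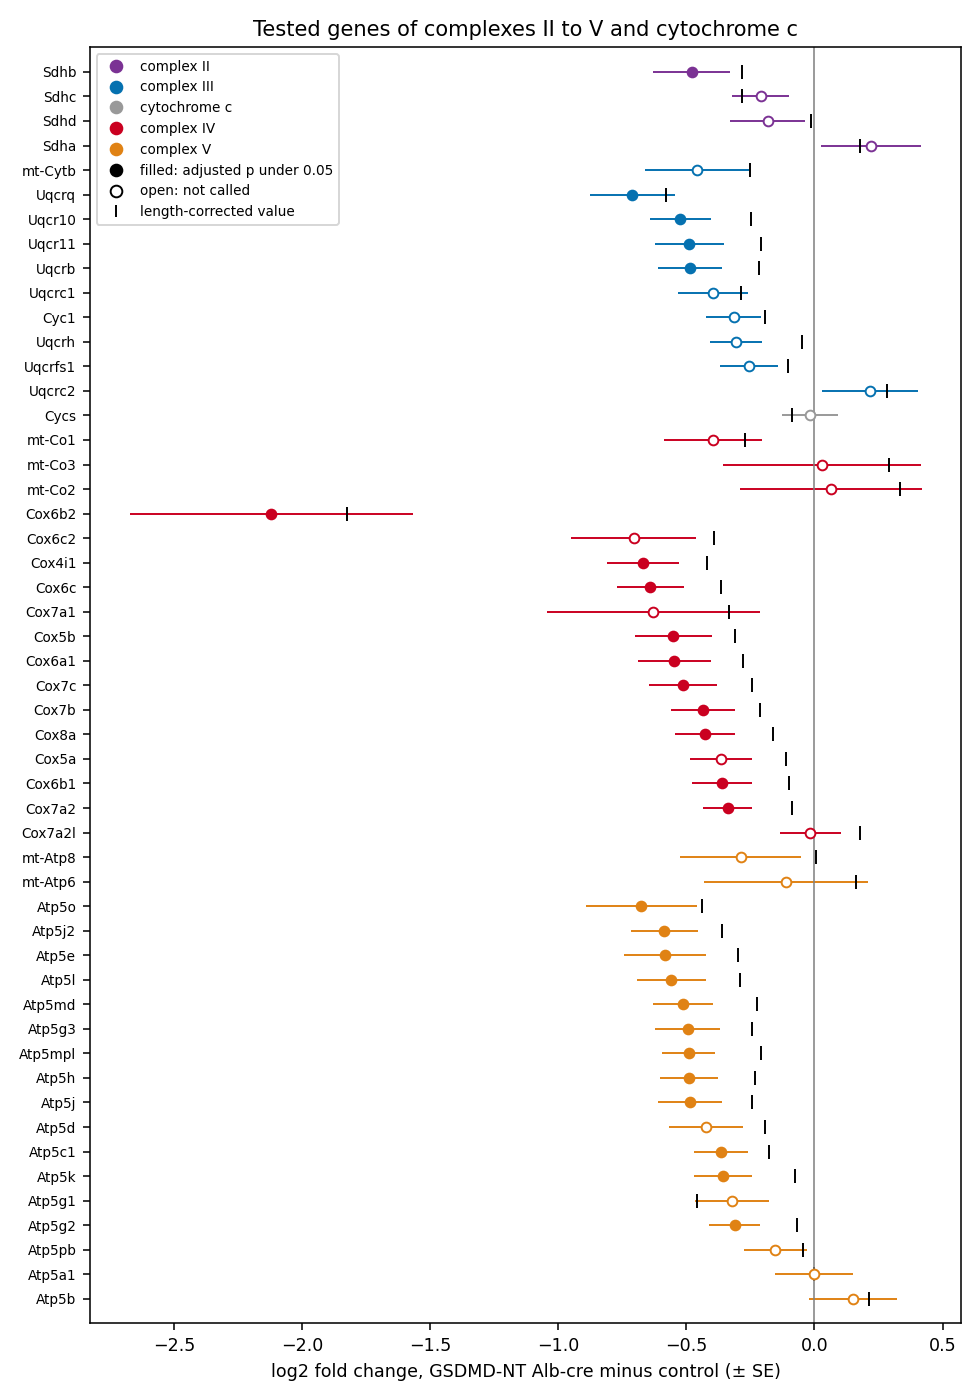
Log2 fold change ± SE of each of the 51 tested genes, GSDMD-NT Alb-cre (n = 5) minus control (n = 4), grouped by complex, with mitochondrially encoded genes first in each group. Filled points passed an adjusted p of 0.05 and black ticks are the values after correction for transcript length. The filled points all lie left of 0, and most ticks lie nearer to 0 than their points.

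In complex II the iron-sulfur subunit gene Sdhb alone was called. Sdhb had 166, 116, 205, 176 and 157 CPM across the 5 GSDMD-NT Alb-cre livers, against 230.2, 239, 208 and 238 CPM in the 4 controls. Its groups did not overlap, with GSDMD-NT Alb-cre liver 2 the lowest, and the fold change was -0.48 ± 0.15 (adjusted p = 0.0448). That call was lost in 7 of the 9 fits that left out a liver, where its adjusted p ran up to 0.108. Sdha, the flavoprotein that oxidises succinate, had 597, 438, 734, 589 and 671 CPM across the 5 GSDMD-NT Alb-cre livers, against 651, 499.5, 575 and 354 CPM in the 4 controls. The groups overlapped and the lowest liver was control 4. The fold change of Sdha was 0.22 ± 0.20 (adjusted p = 0.445). Per length Sdha had 209 CPM per kilobase in GSDMD-NT Alb-cre livers and 179 CPM per kilobase in controls, and Sdhb had 144 CPM per kilobase in GSDMD-NT Alb-cre livers and 200.2 CPM per kilobase in controls. The genes of the membrane anchor, Sdhc and Sdhd, had fold changes of -0.21 ± 0.11 and -0.18 ± 0.15 and were not called.

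In complex III 4 of the 5 small accessory subunits were called lower by edgeR, and the large core subunits were not. Uqcrq had 284, 291, 269, 308 and 242 CPM across the 5 GSDMD-NT Alb-cre livers, against 364, 506, 356 and 599.5 CPM in the 4 controls. All 5 GSDMD-NT Alb-cre livers were below the controls, of which numbers 2 and 4 were the highest. The fold change of Uqcrq was -0.71 ± 0.17 (adjusted p = 0.0157), and its call was lost when control 2 was left out (adjusted p = 0.0523). Uqcr10, another small subunit, had 98.6, 89.5, 105, 102 and 84.9 CPM across the 5 GSDMD-NT Alb-cre livers, against 124, 137, 128 and 164 CPM in the 4 controls. It fell by 0.52 ± 0.12 on the log2 scale (adjusted p = 0.0145), and the call held in all 9 fits that left out a liver. Uqcrb, whose product lies at the quinone-binding side of cytochrome b, had 75.1 to 94.0 CPM in GSDMD-NT Alb-cre livers and 98.5 to 131 CPM in controls, with a fold change of -0.49 ± 0.13 (adjusted p = 0.0225). Uqcr11 had 88.7 to 109 CPM in GSDMD-NT Alb-cre livers and 111 to 171 CPM in controls, with a fold change of -0.49 ± 0.14 (adjusted p = 0.0299). The groups of both genes did not overlap, but their calls were lost without GSDMD-NT Alb-cre liver 1 or 5 and without control 2 or 4, and that of Uqcr11 also without GSDMD-NT Alb-cre liver 3. Uqcrb has at least 3 near-identical transcripts of other genes in the annotation, so its count is uncertain to that extent.

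The electron carriers of complex III were not called by edgeR. Cyc1, cytochrome c1, had 224 ± 12.2 CPM in GSDMD-NT Alb-cre livers and 279 ± 21.8 CPM in controls, and its fold change of -0.32 ± 0.11 was not called (adjusted p = 0.0615). The Rieske iron-sulfur gene Uqcrfs1 had a fold change of -0.26 ± 0.11 (adjusted p = 0.133), and the hinge protein gene Uqcrh -0.31 ± 0.10 (adjusted p = 0.0533). In these 3 genes every GSDMD-NT Alb-cre liver was below every control although edgeR called none. DESeq2 called Cyc1 (adjusted p = 0.00988) and Uqcrh (adjusted p = 0.0135) lower, and not Uqcrfs1 (adjusted p = 0.0672). The core proteins of the matrix side were not called by edgeR either, with fold changes of opposite sign, Uqcrc1 at -0.40 ± 0.14 (adjusted p = 0.0607) and Uqcrc2 at 0.22 ± 0.19 (adjusted p = 0.435). DESeq2 called Uqcrc1 lower (adjusted p = 0.0315). Cycs, the soluble carrier between complexes III and IV that also starts the caspase cascade when it leaves mitochondria, had 107, 100.1, 129, 106 and 116 CPM across the 5 GSDMD-NT Alb-cre livers, against 105, 119, 112 and 115 CPM in the 4 controls. The groups overlapped closely, with a fold change of -0.02 ± 0.11 (adjusted p = 0.930).

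Complex IV had the lowest median of the nuclear-encoded groups. Cox4i1, a subunit that joins the catalytic core early in assembly, had 178, 192, 176, 191 and 173 CPM across the 5 GSDMD-NT Alb-cre livers, against 234, 317, 245 and 361 CPM in the 4 controls. The GSDMD-NT Alb-cre livers lay in a narrow band below all controls, and controls 2 and 4 were the highest. Cox4i1 fell by 0.67 ± 0.14 on the log2 scale (adjusted p = 0.0103). Cox6c had 119.6, 109.6, 136, 117 and 117 CPM across the 5 GSDMD-NT Alb-cre livers, against 157, 191, 168 and 231 CPM in the 4 controls. It fell by 0.64 ± 0.13 (adjusted p = 0.00939), and both calls held whichever liver was left out. Cox6a1, the isoform of subunit VIa found in liver, was the most abundant nuclear-encoded gene of all 49 per length, at 823 CPM per kilobase in GSDMD-NT Alb-cre livers and 1202 CPM per kilobase in controls. Its levels were 470.1, 463, 476, 498 and 443 CPM across the 5 GSDMD-NT Alb-cre livers, against 594, 738, 565 and 847 CPM in the 4 controls. The spread was wider among the controls, and the fold change was -0.55 ± 0.14 (adjusted p = 0.0231). Cox7c had 123 to 159.8 CPM in GSDMD-NT Alb-cre livers and 171 to 237 CPM in controls, with a fold change of -0.51 ± 0.13 (adjusted p = 0.0220). The calls of Cox6a1 and Cox7c were lost without GSDMD-NT Alb-cre liver 1 or 5 and without control 2 or 4.

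The other called genes of complex IV were Cox5b (-0.55), Cox7b (-0.43), Cox8a (-0.43), Cox6b1 (-0.36), Cox7a2 (-0.34) and Cox6b2, the values being log2 fold changes. Cox6b1, whose product faces cytochrome c, was at the edge of the threshold (edgeR's adjusted p = 0.04995), and Cox5a was just outside it with a like fold change of -0.37 ± 0.12 (adjusted p = 0.0545). DESeq2 called Cox5a lower (adjusted p = 0.0320). Cox7a2l, whose product joins complexes III and IV in supercomplexes, had 81.4 ± 6.39 CPM in GSDMD-NT Alb-cre livers and 82.3 ± 11.3 CPM in controls, a fold change of -0.02 ± 0.12 (adjusted p = 0.940).

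Isoforms of complex IV known from other tissues were near the floor of the counts. Cox6b2, the testis isoform of Cox6b1, had 0.446, 0.266, 0.865, 0.626 and 0.133 CPM across the 5 GSDMD-NT Alb-cre livers, against 0.852, 2.32, 1.03 and 4.12 CPM in the 4 controls. These levels stand for 2 to 15 counts in GSDMD-NT Alb-cre livers and 14 to 69 in controls. The groups overlapped slightly, at GSDMD-NT Alb-cre liver 3 and control 1, and the fold change of -2.12 ± 0.55 was called (adjusted p = 0.0233) but lost without GSDMD-NT Alb-cre liver 1 and without control 2 or 4. Cox6b2 made up 0.412% of the summed counts of Cox6b1 and Cox6b2 in GSDMD-NT Alb-cre livers and 1.40% in controls. Cox7a1, an isoform of heart and skeletal muscle, had 0.899 ± 0.381 CPM in GSDMD-NT Alb-cre livers and 1.40 ± 0.619 CPM in controls (fold change -0.63 ± 0.42, adjusted p = 0.306). The muscle isoforms Cox6a2 and Cox8b had 0 to 2 and 0 to 5 counts per liver, and the lung isoform Cox4i2 0 to 10. The liver isoforms thus held nearly all counts of each pair in both groups.

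In complex V most subunits of the membrane part and the stalks were called lower, and the large subunits of the catalytic head were not. Atp5mpl, a small proteolipid of the membrane part, had 54.0, 53.1, 58.4, 54.0 and 51.6 CPM across the 5 GSDMD-NT Alb-cre livers, against 67.5, 78.1, 73.4 and 85.5 CPM in the 4 controls. The 5 GSDMD-NT Alb-cre livers lay within a narrow range, all below the lowest control. Its fold change was -0.49 ± 0.10 (adjusted p = 0.0101). Atp5j2, subunit f, had 106, 115, 107, 121 and 107 CPM across the 5 GSDMD-NT Alb-cre livers, against 138, 167, 153 and 209 CPM in the 4 controls. It too was separated in every liver, with a fold change of -0.59 ± 0.13 (adjusted p = 0.0126). Atp5h, subunit d of the stator that holds the head still, had 122, 122, 134, 123 and 111 CPM across the 5 GSDMD-NT Alb-cre livers, against 156, 179.5, 157 and 195 CPM in the 4 controls, and a fold change of -0.49 ± 0.11 (adjusted p = 0.0145). Atp5md, a small subunit that takes part in enzyme dimers, had 54.9 to 62.2 CPM in GSDMD-NT Alb-cre livers and 70.3 to 100.4 CPM in controls, with a fold change of -0.51 ± 0.12 (adjusted p = 0.0146). The calls of these 4 genes held in all 9 fits that left out a liver. Of the 4, the length-corrected fit called Atp5j2 alone, and the fit without controls 2 and 4 called none. Atp5h has a near-identical copy in the annotation, Gm10250, that matches 77.6% of its transcript with 2 differing bases.

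The subunits of the head and its shaft differed among themselves in their values. Atp5b, the subunit that makes ATP, had 1173, 968, 1260, 1143 and 1291 CPM across the 5 GSDMD-NT Alb-cre livers, against 1268, 1027, 1163 and 748 CPM in the 4 controls. The groups overlapped, control 4 was the lowest liver, and the fold change was 0.15 ± 0.17 (adjusted p = 0.562). Atp5a1, the alpha subunit beside it, had 1064 ± 132 CPM in GSDMD-NT Alb-cre livers and 1064 ± 149.6 CPM in controls, a fold change of 0.00 ± 0.15 (adjusted p = 0.999). Per length Atp5b was the highest nuclear-encoded gene of complex V, at 609 CPM per kilobase in GSDMD-NT Alb-cre livers and 549 CPM per kilobase in controls. The shaft subunit genes Atp5c1 (-0.37 ± 0.11, adjusted p = 0.0338) and Atp5e (-0.58 ± 0.16, adjusted p = 0.0281) were called lower. Atp5d was not called by edgeR (-0.42 ± 0.15, adjusted p = 0.0612). DESeq2 called Atp5d lower (adjusted p = 0.0329). The proton-carrying ring of subunit c has 3 genes whose mature proteins are the same. Of these Atp5g3 (-0.50 ± 0.13) and Atp5g2 (-0.31 ± 0.10) were called lower, and Atp5g1 (-0.32 ± 0.14) was not (edgeR's adjusted p = 0.134).

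The stator gene Atp5o had the largest fold change of complex V at the lowest level. Atp5o had 3.38, 3.40, 3.06, 3.13 and 2.39 CPM across the 5 GSDMD-NT Alb-cre livers, against 4.26, 3.55, 5.42 and 6.40 CPM in the 4 controls. Per length these are 3.66 CPM per kilobase in GSDMD-NT Alb-cre livers and 5.86 CPM per kilobase in controls. The other tested nuclear-encoded genes of complex V had at least 25.1 CPM per kilobase in GSDMD-NT Alb-cre livers and 31.4 CPM per kilobase in controls. The annotation used here gives Atp5o a second identifier that lies wholly within the exons of Atp5o and Donson, and a near-identical copy, Gm5436. With no statement of how reads were shared among these, the level of Atp5o is uncertain. Its fold change was -0.68 ± 0.22 (adjusted p = 0.0485), and the call held in 1 of 9 fits that left out a liver. The remaining called genes of complex V were Atp5l (-0.56), Atp5j (-0.49) and Atp5k (-0.36), again as log2 fold changes. Over 56.8% of its transcript Atp5l matches Gm10221 with 0 differing bases, so its count is uncertain to that extent. Gm10221 had 303 to 553 counts per liver, beside 309 to 659 for Atp5l. Near-identical copies of Atp5g2 (Gm10175) and Cox7c (Gm10012) had 3 to 35 and 2 to 11 counts. Atp5pb, subunit b of the stator, was not called (-0.15 ± 0.12, adjusted p = 0.403).

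The 2 most abundant transcripts of the whole set were mitochondrial. mt-Co1, the subunit of complex IV that binds oxygen, had 20790, 19230, 24470, 20130 and 21700 CPM across the 5 GSDMD-NT Alb-cre livers, against 24270, 26980, 25790 and 34900 CPM in the 4 controls. The groups overlapped only at GSDMD-NT Alb-cre liver 3 and control 1, and control 4 was the highest. The fold change of mt-Co1 was -0.40 ± 0.19 and was not called by edgeR (adjusted p = 0.165). DESeq2 called mt-Co1 lower (adjusted p = 0.0220). mt-Cytb, cytochrome b of complex III, had 10420, 9380, 12050, 9697 and 10040 CPM across the 5 GSDMD-NT Alb-cre livers, against 11290, 14340, 11780 and 19360 CPM in the 4 controls. It showed the same liver as highest, and its fold change of -0.46 ± 0.20 was not called by edgeR (adjusted p = 0.129). DESeq2 called mt-Cytb lower (adjusted p = 0.0367). Both fold changes were of the size of many called nuclear-encoded genes, with larger standard errors. Per length mt-Co1 had 13770 CPM per kilobase in GSDMD-NT Alb-cre livers and 18120 CPM per kilobase in controls. The count of mt-Co1 was 1.80 to 2.19 times that of mt-Cytb over the 9 livers.

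The other mitochondrial genes were counted at far lower levels. The count of mt-Co1 was 94.9 to 353.9 times that of mt-Co2, 155 to 598 times that of mt-Co3 and 180 to 555 times that of mt-Atp6, although all 4 are read from the same strand of the mitochondrial genome. Each of these 3 genes has a nuclear pseudogene with the same letters in the annotation: Gm28661 for mt-Co2 over 681 bases, Gm28437 for mt-Co3 over 783 bases and Gm10925 for mt-Atp6 over 678 bases, with 0 differing bases. The abundant mt-Co1 has near-identical copies too. Gm13340 differs from it at 37 bases over its full 1545, and Gm29216 at 1 of 483 aligned bases. Gm13340 had 969 to 2041 counts per liver, beside 288950 to 583986 for mt-Co1. The counts of mt-Co2 and Gm28661 summed to 1847 to 5739 per liver. For mt-Atp8, of 204 nt, the count of mt-Co1 was 669 to 1910 times as high. No near-identical copy over at least 50% of mt-Atp8 was found. Whether the copies bear on the low levels was not tested. For mt-Cytb the nearest copy shown, Gm11410, differed at 81 of 1142 aligned bases. The first 60 bases of mt-Co2 and its copy, and a stretch of mt-Cytb and its copy, are printed to show this contrast (GRCm38, transcript strand). Capitals mark the bases at which the pair differs.
mt-Co2 (chrM:7013-7072, plus strand): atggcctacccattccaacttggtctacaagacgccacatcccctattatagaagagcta
Gm28661 (chr1:24615506-24615565, minus strand): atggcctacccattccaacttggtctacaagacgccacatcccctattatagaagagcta
mt-Cytb (chrM:14146-14205, plus strand): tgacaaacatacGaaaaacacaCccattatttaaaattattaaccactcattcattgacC
Gm11410 (chr4:80003990-80004049, plus strand): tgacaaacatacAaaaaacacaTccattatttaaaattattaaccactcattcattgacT

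A read that fits a gene and its copy equally well cannot be assigned by its letters, and the rule used for such reads is not known here. The counts of mt-Co2, mt-Co3 and mt-Atp6 are therefore uncertain as levels. mt-Co2 had 67.4, 72.4, 76.7, 70.5 and 229 CPM across the 5 GSDMD-NT Alb-cre livers, against 68.6, 87.3, 114 and 125 CPM in the 4 controls. GSDMD-NT Alb-cre liver 5 was far above the others of its group. mt-Co3 had 34.8, 42.9, 43.3, 38.1 and 139.6 CPM across the 5 GSDMD-NT Alb-cre livers, against 41.0, 48.2, 68.8 and 75.7 CPM in the 4 controls. mt-Atp6, the proton channel subunit of complex V, had 45.2, 43.2, 44.1, 44.5 and 121 CPM across the 5 GSDMD-NT Alb-cre livers, against 45.1, 55.7, 65.1 and 91.2 CPM in the 4 controls. In both genes the same liver was again the highest. The count of the copy of mt-Co2 was high there too. Gm28661 had 2295 counts in GSDMD-NT Alb-cre liver 5, against 775 to 930 in the other 4 and 802 to 1556 in controls. The fold changes were 0.06 ± 0.36 for mt-Co2, 0.03 ± 0.39 for mt-Co3 and -0.11 ± 0.32 for mt-Atp6, and none was called (edgeR's adjusted p = 0.918, 0.964 and 0.834). mt-Atp8 went the other way in that liver, with 28.9, 25.3, 29.9, 27.6 and 11.4 CPM across the 5 GSDMD-NT Alb-cre livers, against 36.3, 32.4, 27.3 and 24.3 CPM in the 4 controls. Its fold change was -0.29 ± 0.24 (adjusted p = 0.412). Without GSDMD-NT Alb-cre liver 5 the median log2 fold change of the 6 genes was -0.46 in place of -0.20, and without mt-Co2, mt-Co3 and mt-Atp6 it was -0.40.

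**Figure D2:**
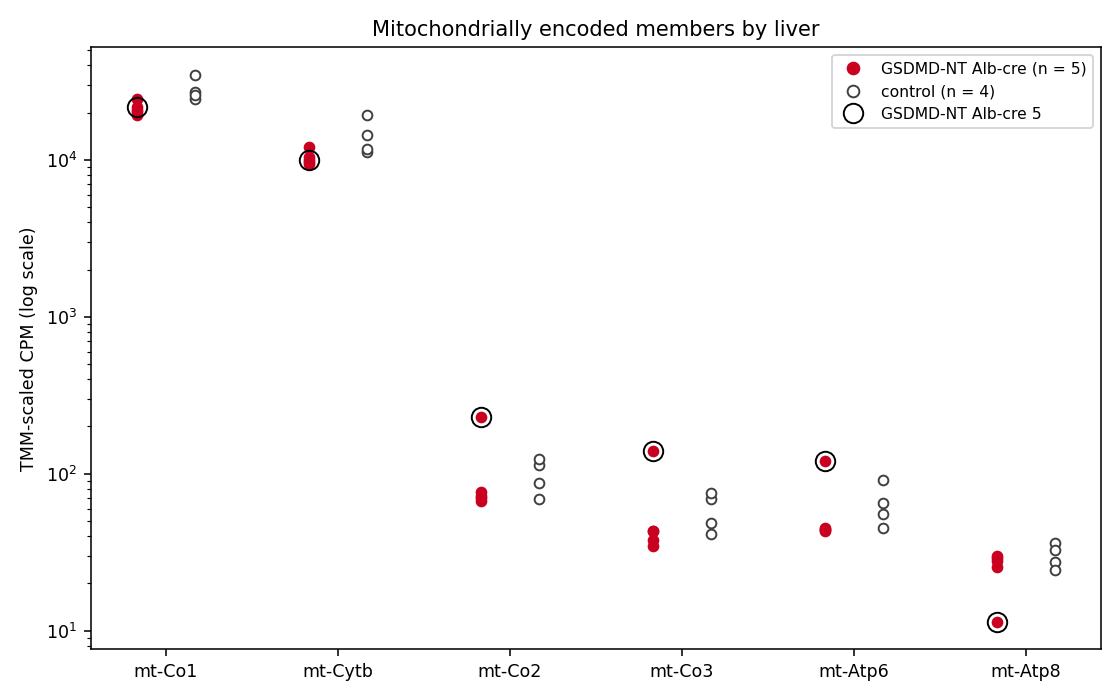
TMM-scaled CPM (log axis) of the 6 mitochondrially encoded genes in each GSDMD-NT Alb-cre liver (red, n = 5) and each control liver (open, n = 4). Rings mark GSDMD-NT Alb-cre liver 5, which was the highest of its group for mt-Co2, mt-Co3 and mt-Atp6 and the lowest for mt-Atp8.

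The share of each library taken by these genes was read by genome of origin. The 6 mitochondrially encoded members held 2.57 to 3.82% of the counts of GSDMD-NT Alb-cre livers and 3.59 to 5.57% of those of controls, and these ranges overlapped. The 49 nuclear-encoded rows held 0.829, 0.658, 0.934, 0.916 and 0.794% in the 5 GSDMD-NT Alb-cre livers, against 0.971, 1.00, 0.947 and 1.04% in the 4 controls. These ranges did not overlap, and GSDMD-NT Alb-cre liver 3 and control 3 were the nearest.

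The nuclear-encoded genes were also read liver by liver. The median over the 45 tested genes, as log2(CPM + 0.1) minus the control mean, was -0.43, -0.49, -0.31, -0.34 and -0.50 in GSDMD-NT Alb-cre livers 1 to 5, against -0.15, 0.08, -0.13 and 0.19 in controls 1 to 4. The controls fell into a lower pair, 1 and 3, and a higher pair, 2 and 4. Every GSDMD-NT Alb-cre liver was below the lower pair. With controls 2 and 4 both left out, 0 members were called lower or higher, where 0.301% of 14595 tested genes were called lower, and the median over the tested members was -0.26. Leaving out control 2 alone left 8 members called lower (4.39% of all tested genes), and leaving out control 4 alone left 8 (4.4%).

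**Figure D3:**
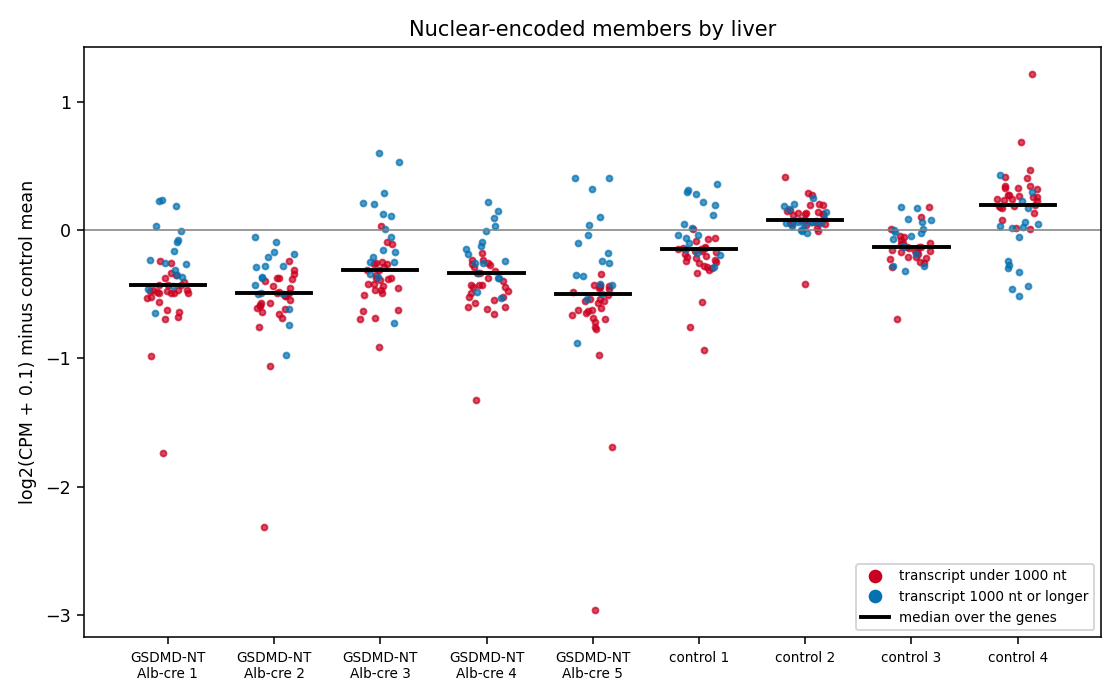
Each of the 45 tested nuclear-encoded genes in each liver, as log2(CPM + 0.1) minus the mean of the 4 controls, with GSDMD-NT Alb-cre livers on the left and controls on the right. Red points are genes with a transcript under 1000 nt, blue points longer ones, and black bars the median of each liver, which ran from -0.50 to -0.31 in GSDMD-NT Alb-cre livers and from -0.15 to 0.19 in controls.

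The fold changes of the nuclear-encoded genes went with the length of their transcripts, taken from an annotation of build GRCm38. Of 28 tested genes with a transcript under 1000 nt, 23 were called lower, with a median of -0.50. Of 6 with 1000 to below 1500 nt, 3 were lower, with a median of -0.31. Of 11 with 1500 nt or more, Uqcrq alone was lower, with a median of -0.15. Uqcrq has principal transcripts of 405 and 1521 nt, of which the longer was used, and Atp5g1 has principal transcripts from 596 to 4715 nt. With the shortest principal transcript of each gene, a choice made after the values were seen, 24 of 30 genes under 1000 nt and 0 of 9 with 1500 nt or more were called lower. Across the 45 genes, which share the same livers, Spearman's rho between length and fold change was 0.61 with the lengths used and 0.66 with the shortest.

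The same lean was present over all genes tested. Of 1529 tested genes under 1000 nt, 16.4% were called lower, with a median log2 fold change of -0.24. In 10852 genes of 1500 nt or more, 7.18% were lower and the median was 0.07. The short nuclear-encoded members thus had a median of -0.50 beside -0.24 for all genes of that length class, and the long ones -0.15 beside 0.07. Whether members and other genes of like length differ was not tested. In a fit with an offset for transcript length in each liver, 4 members were called lower (Uqcrq, Cox4i1, Cox6b2 and Atp5j2) and 0 higher, where 7.65% of all tested genes were called lower. The median of the nuclear-encoded members in that fit was -0.22, that of the mitochondrially encoded ones 0.09 and that of all tested genes 0.01. Length-corrected, Uqcrq had a log2 fold change of -0.58 (edgeR's adjusted p = 0.0256), Cox4i1 -0.42 (adjusted p = 0.0325) and Atp5j2 -0.36 (adjusted p = 0.0406). The value of Uqcrq rests on the length of 1521 nt. Its call with the principal transcript of 405 nt was not tested.

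**Figure D4:**
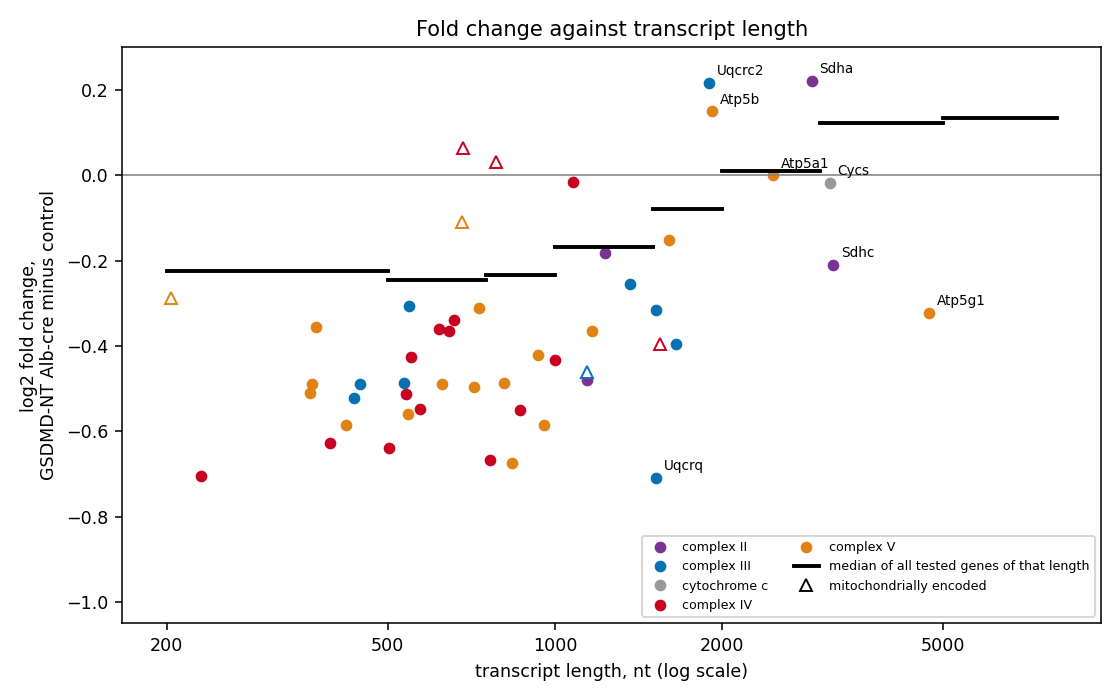
Log2 fold change, GSDMD-NT Alb-cre minus control, against transcript length (log axis) for 50 of the 51 tested genes, with Cox6b2 at -2.12 left out of the range. Circles are nuclear-encoded and triangles mitochondrially encoded genes, and black bars are the medians of all tested genes by length class. Nuclear-encoded genes under 1000 nt lie below the bars of their class, and Sdha, Uqcrc2 and Atp5b, each over 1500 nt, lie above 0.

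Complex I, the entry point for electrons from NADH, gave like counts in the fit without length correction. Of 47 tested complex I genes 24 were called lower and 0 higher, with a median of -0.43. Over all tested genes 9.07% were called lower and 9.25% higher. The complex I calls too were nuclear-encoded (24 of 40, against 0 of 7 mt-Nd genes). The length-corrected fit called 7 of these 40 lower and 4 of the 45 nuclear-encoded members, where 7.65% of all tested genes were called lower. Ndufa1, a small accessory subunit, had 48.8 ± 0.922 CPM in GSDMD-NT Alb-cre livers and 77.5 ± 11.4 CPM in controls (fold change -0.67 ± 0.11, adjusted p = 0.00492). The tricarboxylic acid cycle, whose succinate feeds complex II, had 1 of 14 tested genes higher and 0 lower, with a median of 0.04. That gene was Fh1, fumarase, which takes up the fumarate that complex II releases, with 232, 288, 193, 194 and 277 CPM across the 5 GSDMD-NT Alb-cre livers, against 146, 166, 165 and 139 CPM in the 4 controls. Its groups did not overlap, and the fold change was 0.62 ± 0.15 (adjusted p = 0.0177), a call lost without control 4 (adjusted p = 0.0541). The carriers that supply ATP synthase with ADP and phosphate, with the uncoupling proteins, had 0 of 4 tested genes called. Among them the phosphate carrier Slc25a3 had a fold change of -0.23 ± 0.11 (adjusted p = 0.138). Genes of cytosolic ribosomal proteins, which are short as well, had 12 of 83 lower (14.5%) and 1 higher, with a median of -0.27. Of all tested genes under 1000 nt, 16.4% were lower, with a median of -0.24.

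Assembly factors of complexes II to V were mostly not called. Of 41 tested, 8 were lower and 0 higher, where 9.07% of all tested genes were called lower and 9.25% higher. Their median was -0.02 and their median transcript 1813 nt. Cox19, a copper-handling factor for complex IV, had 34.9, 40.1, 35.3, 35.6 and 30.4 CPM across the 5 GSDMD-NT Alb-cre livers, against 51.1, 48.9, 56.9 and 65.8 CPM in the 4 controls. The groups did not overlap, and Cox19 fell by 0.66 ± 0.12 on the log2 scale (adjusted p = 0.00637). It was also called in the length-corrected fit (-0.66, edgeR's adjusted p = 0.00708). Uqcc3, which helps cytochrome b into complex III, had 16.0 ± 2.27 CPM in GSDMD-NT Alb-cre livers and 25.5 ± 4.59 CPM in controls (fold change -0.67 ± 0.15, adjusted p = 0.0116). The complex III factor Uqcc2 (-0.52 ± 0.12), the complex II factor Sdhaf4 (-0.55 ± 0.16), the complex IV factor Coa8 (-0.57 ± 0.13) and the complex V factor Fmc1 (-0.54 ± 0.14) were lower too, as were Cmc1 and Higd2a. The call of Sdhaf4 held in 3 of the 9 fits that left out a liver, and that of Fmc1 in 7. Those of Uqcc2 and Coa8 held in all 9. The length-corrected fit called 2 of the 41 lower, Cox19 and Uqcc3, where 7.65% of all tested genes were called lower.

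Among 25 tested genes of mitochondrial transcription, replication and their nuclear regulators, 3 were higher and 2 lower, shares near the 9.25% and 9.07% of all tested genes. In the length-corrected fit 1 was higher and 4 were lower, where 7.36% of all tested genes were called higher and 7.65% lower. Ppargc1b, a coactivator that promotes expression of respiratory genes, had 4.71, 2.40, 7.50, 6.20 and 5.05 CPM across the 5 GSDMD-NT Alb-cre livers, against 10.6, 9.62, 11.0 and 11.5 CPM in the 4 controls. All GSDMD-NT Alb-cre livers were below all controls, and the fold change was -1.04 ± 0.25 (adjusted p = 0.0180), a call lost without control 4 (adjusted p = 0.0539). Its relative Ppargc1a was not called (-0.63 ± 0.23, adjusted p = 0.0728), with 4.53 ± 1.49 CPM in GSDMD-NT Alb-cre livers and 7.05 ± 0.731 CPM in controls. The length-corrected fit called Ppargc1a lower (-0.76, edgeR's adjusted p = 0.0356). Polg2, the accessory subunit of the mitochondrial DNA polymerase, was lower (-0.76 ± 0.19, adjusted p = 0.0203). Its catalytic partner Polg was higher (0.52 ± 0.13, adjusted p = 0.0183), as was the helicase gene Twnk (0.45 ± 0.12, adjusted p = 0.0220). The calls of Polg, Polg2 and Twnk were lost without control 4, and that of Polg also without control 2 and in the length-corrected fit (edgeR's adjusted p = 0.0630). Tfam, which packages mitochondrial DNA and starts its transcription, had 37.1 ± 4.36 CPM in GSDMD-NT Alb-cre livers and 36.8 ± 4.40 CPM in controls, a fold change of 0.01 ± 0.12 (adjusted p = 0.964). Nrf1, the gene of nuclear respiratory factor NRF1, had a fold change of 0.20 ± 0.14 (adjusted p = 0.328). The genes Ppargc1a, Tfam, Nrf1 and Slc25a3 were named after their values were seen.

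Promoters of the set share letters known as sites of such regulators. RefSeq sequences (GRCm38.p6, 250 bases before to 50 after the start) were matched for 36 of the 55 rows. The palindrome known for NRF1, which is the core GCATGCGC preceded by GC, was in 4 of them (11.1%), against 0.97% of 32851 promoters in the table. The core GCATGCGC itself, which lies inside the palindrome, was in 8 (22.2%, against 2.71%), the ETS-factor core CCGGAAG in 13 (36.1%, against 8.86%) and the YY1 core AAGATGGCG in 2 (5.6%, against 1.4%), all on both strands. Among 22 matched genes called lower, 6 held the short core and 11 the ETS core, and among 13 tested but not called, 2 and 2. Windows of 60 bases are shown for the 6 genes whose core lies wholly before the start, to set 5 called lower beside Cycs, which was not called. Capitals mark the palindrome or, where it is incomplete, the short core.
Sdhb (chr4:140961191-140961250, plus strand): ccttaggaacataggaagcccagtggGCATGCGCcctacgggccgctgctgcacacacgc
Cox6a1 (chr5:115349087-115349146, minus strand): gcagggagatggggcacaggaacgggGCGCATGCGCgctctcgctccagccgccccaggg
Atp5k (chr5:108434416-108434475, minus strand): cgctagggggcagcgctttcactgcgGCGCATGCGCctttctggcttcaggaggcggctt
Atp5g2 (chr15:102671056-102671115, minus strand): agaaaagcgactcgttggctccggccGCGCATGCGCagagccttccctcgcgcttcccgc
Atp5l (chr9:44920933-44920992, minus strand): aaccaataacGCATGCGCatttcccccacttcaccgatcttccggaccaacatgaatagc
Cycs (chr6:50566596-50566655, minus strand): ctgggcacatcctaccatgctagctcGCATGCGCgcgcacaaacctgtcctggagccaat

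In these windows the motif began 42 to 240 bases before the start of the gene, at -42 in Atp5g2, -50 in Atp5k, -54 in Sdhb, -60 in Cycs, -162 in Cox6a1 and -240 in Atp5l. The log2 fold changes of the same genes were -0.31 for Atp5g2, -0.36 for Atp5k, -0.48 for Sdhb, -0.02 for Cycs, -0.55 for Cox6a1 and -0.56 for Atp5l. A match describes letters, not binding.

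Markers of cell types were read beside these results, since whole livers mix many cells and fewer cells of a type cannot be told apart from less RNA per cell. The 8 hepatocyte markers summed to 57000 to 71990 CPM in GSDMD-NT Alb-cre livers and 71830 to 91210 CPM in controls, with Tat called higher, Ttr called lower and 6 not called. Ttr had 2886 ± 684 CPM in GSDMD-NT Alb-cre livers and 6352 ± 723 CPM in controls (fold change -1.14 ± 0.20, adjusted p = 0.00553). Among 8 Kupffer cell and macrophage markers Timd4 was higher, at summed levels of 169 to 225 CPM in GSDMD-NT Alb-cre livers and 117 to 224 CPM in controls. Among 6 sinusoidal endothelial markers Lyve1 was higher (57.7 to 164 CPM in sum in GSDMD-NT Alb-cre livers, 72.0 to 122 CPM in controls). Cd79a and Cd79b were the called markers among 3 tested of B and plasma cells, and both were lower, at summed levels of 1.15 to 1.72 CPM in GSDMD-NT Alb-cre livers and 4.00 to 5.11 CPM in controls. Of 9 fits that left out a liver, 3 kept the call of Timd4, 3 that of Cd79b, 4 that of Tat and 5 that of Lyve1, while Ttr and Cd79a were called in all 9. The length-corrected fit did not call Cd79b (edgeR's adjusted p = 0.0712). None of 7 stellate, 5 cholangiocyte, 2 T and NK cell and 3 erythroid markers tested was called, nor was the tested marker of neutrophils, adipocytes or striated muscle (1 each). The part of cell composition in the lower subunit levels was not tested.

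How many genes were called lower depended on the settings. In each of 23 settings 0 members were called higher, and the number called lower ran from 0 to 35. Over all tested genes, the share called lower ran from 0.301% to 13.2% in the same settings. A block on the replicate number of the titles gave 9 lower (5.87% of all tested genes), and a block on the number in the descriptions gave 0 (1.64%). Atp5h, Atp5j2, Atp5md, Atp5mpl, Cox4i1, Cox6c and Uqcr10 were called lower in all 9 fits that left out a liver.

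**Figure D5:**
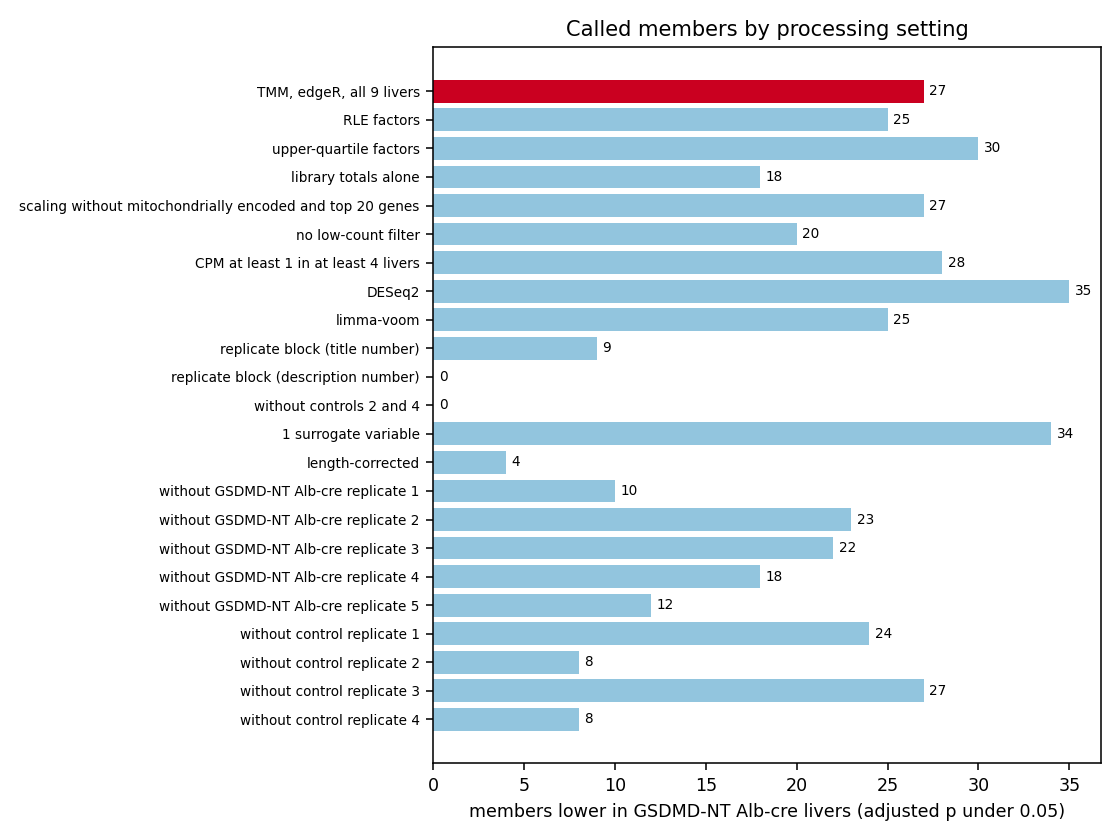
Number of members called lower in GSDMD-NT Alb-cre livers under each setting, with the fit reported here in red at 27. DESeq2 gave the most (35), and the fits without controls 2 and 4 and with a block on the description number gave 0.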

How the data were processed

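RNA was measured in 9 mouse livers, grouped by their titles; the labels give no batch. Per the labels' protocols, strand-specific libraries were made after ribosomal RNA depletion and read from both ends. The submitters' processing notes name fastp 0.23.2, HISAT2 2.1.0 and genome build GRCm39. For the counting tool, its strand setting and the annotation, no statement was found in the labels. The deposited table held the authors' whole-number counts per gene, with no normalization, for 18954 rows.

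All 14004 genes that passed filterByExpr were fitted with edgeR 4.0.16 in R 4.3.3 (glmQLFit and glmQLFTest on TMM factors), with Benjamini-Hochberg adjustment and a call meant an adjusted p under 0.05. Each SE was the log2 fold change over the root of F. The test was checked on simulated counts. Symbols and Ensembl identifiers are those of the table. Transcript lengths and overlaps came from GENCODE vM21 (GRCm38), one principal transcript a gene, and near-identical transcripts (at least 97% identity over at least 50% of a member) from blastn 2.17.0. Since builds differ, no coordinates are given for the counts. Libraries of a group differed by more than counting noise (chi-square of 13.96 or more per gene).

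The members, lists, tests and the named-gene rule were chosen with earlier results of these data known. The rule took, per complex and direction, the 4 called members with the smallest adjusted p, every mitochondrially encoded member, per complex the member of highest CPM per kilobase and that of largest fold change, tissue isoforms, Gsdmd, Alb, and up to 2 called genes of each other list in each direction. Other genes given with values were named after these were seen. Alternatives were RLE (DESeq2-type), upper-quartile and total-count scaling, scaling without mitochondrially encoded and the 20 most abundant genes, no filter on low counts, a filter at a CPM of 1 in 4 or more livers, DESeq2 1.42.0, limma-voom (limma 3.58.1), replicate blocks, 1 surrogate variable (sva 3.50.0), a length offset per liver (lowess span 0.3), each liver left out, and controls 2 and 4 left out.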

Additional observations from a re-analysis of the deposited data

Results flagged for a closer look

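In GSDMD-NT Alb-cre liver 5, 4 mitochondrially encoded genes lay far from the other livers of the group, by Dixon's test of the gap over the range. mt-Co2 was the highest at 228.8 CPM, with the nearest liver at 76.7 CPM. mt-Co3 was the highest at 139.6 CPM, with the nearest at 43.3 CPM, and mt-Atp6 the highest at 120.8 CPM, with the nearest at 45.2 CPM. mt-Atp8 was the lowest at 11.4 CPM, with the nearest at 25.3 CPM. mt-Co1 and mt-Cytb of the same liver, at 21700 and 10040 CPM, were not set apart. Of 102 groups looked at (51 genes in each genotype) these were the 4 set apart, where chance gives about 1 in 20. The 3 high genes have nuclear copies of the same letters in the annotation. These copies were high in the same liver, with 2295 counts for Gm28661, 1413 for Gm28437 and 4218 for Gm10925. Whether the copies took part in the deviation was not tested.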

How the results depend on the processing

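Across 22 alternatives 0 members were called higher and the median of the nuclear-encoded members stayed below 0. The number called lower was 27, and 18 to 35 under other scalings, filters, DESeq2, limma-voom and 1 surrogate variable. It was 9 with a replicate block on the title number, 0 with a block on the description number, 0 without controls 2 and 4, and 4 in the length-corrected fit, and 8 to 27 when each liver was left out in turn. The 4 lowest of those were 8 without control 2 and without control 4, 10 without GSDMD-NT Alb-cre liver 1 and 12 without liver 5. Without controls 2 and 4 the medians were -0.26 over tested and -0.27 over nuclear-encoded members, and with length correction -0.21 and -0.22. The median of the mitochondrially encoded members was -0.02 without controls 2 and 4 and 0.09 with length correction. Deviations of same-numbered livers had correlations across genes of -0.02 to 0.13 by title number and -0.11 to 0.05 by description number. So few livers cannot show whether the numbers pair the samples. Whether a call lost under a block reflects a weaker effect was not tested. Of 1010 values for single genes under these alternatives, 837 kept their side of the threshold, 2 gained a call (mt-Co1 and mt-Cytb in DESeq2) and 171 lost one. Beyond the fewer samples of some fits, the cause of these losses was not tested. Depth limits Cox6b2, Cox7a1, Cox4i2, Cox6a2 and Cox8b, with 0 to 69 counts per liver.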
